A study of Rattus norvegicus with 18 samples.

Results

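Muscle of rats labelled DMD, a genotype that models Duchenne muscular dystrophy, was compared with wild-type (WT) muscle at 9 months of age. The members are the 14801 of 30560 entries in the table with enough counts to test, compared between 3 DMD and 3 WT libraries. These 6 libraries are 6 of the 18 in the series. The count filter was applied over 12 libraries of 9 months, 6 of them labelled p16-null DMD. Applied to the 6 compared libraries alone, it kept 14041 entries. Among the tested genes were 806 transcription factor and cofactor genes, found by symbol in 45 families of such genes, and 76 further families covered enzymes, receptors, transporters, ligands and other proteins. All libraries hold RNA from frozen sections of the tibialis anterior, the shin muscle, which in rats is built mainly of fast fibres. Both groups were 9 months old, and they differ in genotype as labelled. The labels name no allele, strain or sex, and only the titles tell the libraries of a group apart. Whether each came from its own rat is not stated, so a p-value here reflects library-to-library spread, which may be technical. The other 12 libraries are 6 of p16-null DMD rats of 9 months and 3 each of WT rats of 3 and 18 months.

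Duchenne muscular dystrophy follows from loss of dystrophin, the protein that ties the cytoskeleton of a muscle fibre to the matrix around it. Fibres without it are damaged by contraction, degenerate and regenerate in rounds, and are replaced over time by scar tissue, fat and immune cells. Which genes a fibre uses is set by transcription factors, among them homeobox factors such as Six4 and their Eya cofactors, which drive fast-fibre genes, and the nuclear receptors and coactivators that drive mitochondrial genes. Immune cells and fibroblasts use other sets, such as the interferon regulatory factors and the Snail proteins.

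The 4 genes that mark the comparison separated the groups. Dmd, which encodes dystrophin, stood at 120.5, 147 and 176 CPM (counts scaled to a common library size) in WT replicates 1 to 3 and at 33.9, 46.7 and 36.6 in DMD replicates 1 to 3. Every DMD library was below every WT library, with a log2 fold change of -1.92 ± 0.22 (SE, adjusted p = 9.6e-06). Cdkn2a, the gene of the cell cycle inhibitor p16, had 3 counts over the WT libraries and 712 over the DMD libraries, a ratio of 146 with a 95% counting interval of 49.8 to 710.3. Embryonic myosin Myh3, a marker of regenerating fibres, was at 3.32, 1.28 and 1.06 CPM in WT and at 193, 334 and 161 CPM in DMD. The matrix gene Postn was at 30.1, 20.4 and 47.4 CPM in WT and at 411, 340.1 and 363 CPM in DMD. Myh3 and Postn rose, with log2 fold changes of 6.87 ± 0.50 and 3.50 ± 0.29 (adjusted p = 9.1e-07 and 1.5e-06). Without WT replicate 1 the change of Myh3 was 7.62. Here and below, CPM values are on the TMM scale unless library totals are named, adjusted p-values come from edgeR's quasi-likelihood test with Benjamini-Hochberg adjustment over all tested genes, and a gene is called higher or lower where that value is under 0.05.

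Markers of the fibre and of the other cells in the muscle moved between the groups, and this stands beside every result below. Of 10 fibre markers 8 were tested and all 8 fell by TMM, 7 of them also by library totals. Their summed level ran from 138890 to 159780 CPM in WT and from 36136 to 56825 CPM in DMD. All 8 macrophage markers rose, and their sum went from 371.8 to 405.6 CPM in WT to 2293 to 3506 CPM in DMD. The 4 tested of 7 T and B cell markers rose, from sums of 0.428 to 1.26 CPM to sums of 20.4 to 28.7 CPM, while Cd79a and Cd79b had too few counts to test. The 5 fibroblast markers rose as well, from sums of 1402 to 1420 CPM to sums of 2978 to 5066 CPM. Of 5 adipocyte markers 4 rose and 1 fell by TMM, and by library totals 4 rose and none fell. Of 5 endothelial markers none rose and 2 fell by TMM, while by library totals 1 rose and none fell. Markers of Schwann cells (2 of 6), smooth muscle (2 of 5 by TMM, 3 by library totals) and tendon (2 of 5) rose in part. Both tested markers of red blood cells fell. The share of counts from genes of the mitochondrial genome was 12.1 to 18.9% in WT and 6.45 to 9.12% in DMD. In such bulk tissue, fewer cells of a type and less RNA per cell cannot be told apart, and the part of these shifts in the gene results was not tested.

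How the libraries are put on a common scale decides the direction for many genes here. WT libraries held 9.61 to 15.8 M estimated counts and DMD libraries 11.5 to 16.6 M. The 50 most abundant genes took 45.7 to 49.2% of a WT library but 28.8 to 32.9% of a DMD library. TMM, the trimmed mean of log ratios, sets the scale by the bulk of genes and gave factors of 0.687 to 0.761 in WT and 1.07 to 1.19 in DMD. Library-total scaling divides each count by the library's own total and takes no account of that difference. The same gene's estimate lay 0.64 log2 units higher by totals than by TMM (median over genes), and the median log2 fold change of all tested genes was 0.11 by TMM and 0.76 by totals.

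By TMM, 7142 genes passed (48.3% of those tested), 3914 higher in DMD (26.4%) and 3228 lower (21.8%). By library totals 8931 passed (60.3%), 7691 higher (52.0%) and 1240 lower (8.38%). The sign of the estimate differed between the scalings for 3498 genes. No gene passed the test in opposite directions: the 1240 lower by totals were all lower by TMM, and the 3914 higher by TMM were all higher by totals. The scalings disagreed on whether a gene passed, since 1988 genes were lower by TMM only and 3777 were higher by totals only. Among the genes lower by TMM only, 577 had an estimate above 0 by totals.

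**Figure D1:**
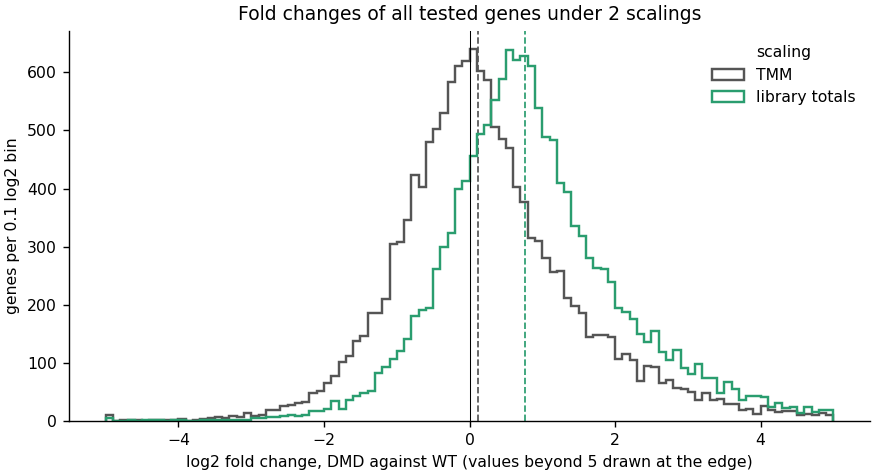
Log2 fold changes of DMD against WT for the 14801 tested genes, in bins of 0.1, under TMM and library-total scaling; dashed lines mark the medians, 0.11 and 0.76. The distributions have like shapes, and that by totals lies to the right.

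Cul4a, Eftud2 and Foxj3 show what this means for a gene of middle abundance. Cul4a, a scaffold of ubiquitin ligases, was at 149, 153 and 152 CPM in WT and 108, 94.6 and 92 CPM in DMD by TMM, where the groups did not overlap. By library totals the same counts gave 103, 111 and 115 CPM in WT and 122, 102 and 109.9 CPM in DMD, where the groups overlapped. Its log2 fold change was -0.62 ± 0.12 by TMM (adjusted p = 0.00075) and 0.02 ± 0.14 by totals (adjusted p = 0.909). Eftud2, a core part of the spliceosome, went from -0.58 by TMM to 0.06 by totals, and the forkhead factor Foxj3 from -0.61 to 0.03. Such genes are reported here as lower only relative to the bulk of genes. The results below rest on genes that passed in 1 direction under both scalings, which were 3914 higher (26.4% of tested genes) and 1240 lower (8.38%). Of these, 3749 higher (25.3%) and 1194 lower (8.07%) had libraries that did not overlap between groups under either scaling.

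Of the 806 transcription factor and cofactor genes, 164 were higher under both scalings (20.3%) and 59 were lower (7.32%), shares below those of all tested genes. Without the Zfp and Zbtb zinc finger genes, 519 factors were left, of which 27.4% were higher and 8.29% lower, close to the 26.4% and 8.38% of all genes. By TMM alone 178 were lower (22.1%), and by totals alone 398 were higher (49.4%). The median log2 fold change of the 806 was 0.06 by TMM and 0.71 by totals, close to the medians of all genes. The difference of these shares from those of other genes was not tested. Only some of the factors named below are among the 10 highest or 10 lowest, or among the 4 smallest p-values of a family described. All other genes named were chosen after their values were seen. Of the 223 called under both scalings, 150 higher and 56 lower also had groups that did not overlap.

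Factors were ranked by TMM fold change among those called under both scalings, with groups that did not overlap and a mean log2 CPM of at least 1. That mean was taken over the 12 libraries of the fit, most of them DMD or p16-null DMD. A factor with few counts in WT thus passed the cut more easily than a factor with few counts in DMD and p16-null DMD. The part of this cut in which factors were ranked highest and lowest was not tested. The 10 lowest included Barx2, Perm1, Sim1, Rxrg, Esrrg, Six4 and Ikzf2. Barx2, a homeobox factor known in muscle progenitors, was at 18, 27.1 and 9 CPM in the WT libraries. In DMD muscle Barx2 had 2 counts in replicate 1 and none in the other two, against 478 counts over WT, so it was 388-fold lower with a 95% counting interval of 106.9 to 3215. By library totals the ratio was 249 with an interval of 68.5 to 2061.

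Six4 is a homeobox factor that works with Eya cofactors on fast-type glycolytic and contractile genes. It was at 78.5, 71.1 and 84.6 CPM in WT and at 16.6, 17.1 and 13.6 CPM in DMD, with little spread inside either group. The highest DMD library lay far below the lowest WT library. Its log2 fold change was -2.31 ± 0.17 by TMM and -1.67 ± 0.15 by totals (adjusted p = 8.7e-07 and 9.3e-07). The cofactor Eya1 fell too, from 39.4, 38.2 and 47.2 CPM to 11.3, 13.9 and 8.89 CPM, a log2 change of -1.87 ± 0.26 (adjusted p = 4.4e-05). Related genes did not all follow. Six5, a factor linked to the myotonic dystrophy locus, rose from 7.28, 2.85 and 4.16 CPM to 13, 10.5 and 8.09 CPM (log2 change 1.12 ± 0.31, adjusted p = 0.00748), and Eya3 rose by a log2 change of 0.58. Eya4 was lower by TMM only and stood at 21.6, 28 and 35.6 CPM in WT and 11, 23.2 and 12.6 CPM in DMD, with overlapping groups.

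**Figure D2:**
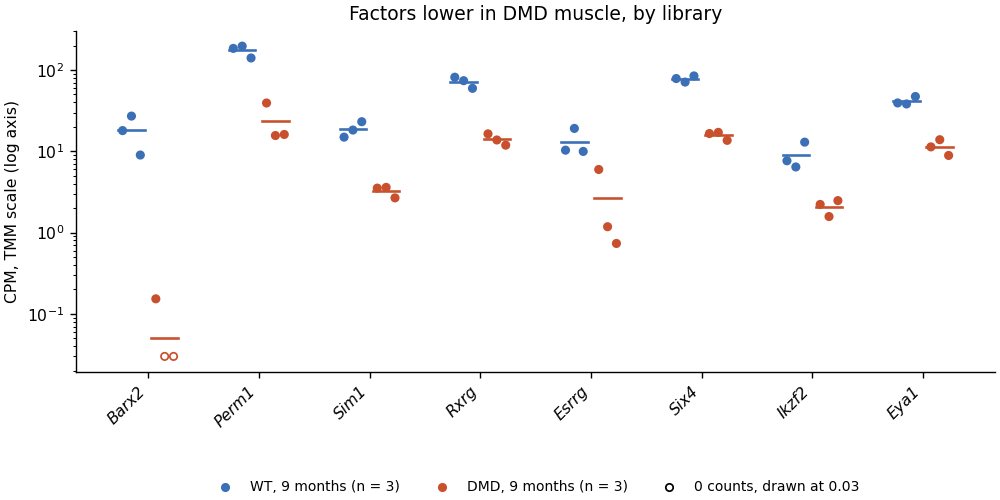
Level of 7 of the 10 lowest factors and of Eya1 in each 9-month library, in CPM on the TMM scale (log axis); points are libraries, bars are group means, and open points are libraries with 0 counts. In each of the 8 genes the 3 DMD libraries lie below the 3 WT libraries, which the ranking required of the first 7, and for Esrrg DMD replicate 1 lies above the other DMD libraries.

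Other factors that fell are named here one by one, most of them chosen after their values were seen, and stand for no tested group. Sim1, a bHLH-PAS factor, was at 14.9, 18.3 and 23.1 CPM in WT and at 3.53, 3.6 and 2.67 CPM in DMD, and its log2 change was -2.52 ± 0.36 (adjusted p = 5.1e-05). Its groups did not overlap. Log2 changes by TMM were -1.69 for Sim2, -1.69 for Tbx1, -1.41 for Lbx1 and -1.79 for Vgll2, a cofactor of Tead proteins. Tead1 itself fell by 1.55 on the log2 scale, and Sox6, a repressor of slow-fibre genes, by 1.45. All 6 passed under both scalings, with the weakest result for Sox6 by totals (adjusted p = 0.0384). Of 22 tested Hox genes, Hoxc10 (-1.64) and Hoxc9 (-1.49) fell and Hoxd9 (1.21) rose under both scalings. By share that is 9.09% and 4.55%, against 8.38% and 26.4% of all genes. The myogenic bHLH factors differed from one another: Myf5 rose (2.43 ± 0.40, adjusted p = 0.0002). Myod1 and Myf6 were lower by TMM only, with adjusted p = 0.0223 and 0.041, and Myog was higher by totals only (adjusted p = 0.00458). Of 7 tested Mef2 and Srf genes, which drive contractile genes, none was called under both scalings. By TMM 2 were lower, where 21.8% of all genes were.

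Nuclear receptors, factors switched by hormones and lipids, split by member. Of 35 tested, 6 were higher under both scalings (17.1%, against 26.4% of all genes) and 7 were lower, where 8.38% of all genes were, and 13 were lower by TMM, where 21.8% of all genes were. Their median log2 fold change was -0.65 by TMM and -0.01 by totals. Rxrg, the partner receptor that is typical of muscle, was at 81.6, 73.9 and 59.5 CPM in WT and at 16.4, 13.8 and 11.9 CPM in DMD, a log2 change of -2.35 ± 0.25 (adjusted p = 6.1e-06). Its groups were far apart. Esrrg, an estrogen-related receptor of oxidative fibres, was at 10.3, 19.1 and 9.97 CPM in WT and at 5.98, 1.18 and 0.736 CPM in DMD. DMD replicate 1 stood above the other DMD libraries; the log2 change was -2.34 ± 0.62 (adjusted p = 0.00635) and -3.74 without that library. Also lower were Esrra (-1.71), Nr4a1 (-1.82), Ppara (-1.82) and Nr1d1 (-1.18). Those higher were Hnf4a, Nr2f1 (2.25), Nr5a2 (2.24), the fat-cell receptor Pparg (1.48), the vitamin D receptor Vdr (1.16) and Rara (0.74).

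Coactivators that work with the estrogen-related receptors were lower in part. Perm1, a muscle protein that acts with them on mitochondrial genes, was at 184, 197 and 141 CPM in WT and at 39.3, 15.6 and 16.1 CPM in DMD. All DMD libraries were below all WT libraries, with replicate 1 the highest of the DMD group. The log2 change was -2.88 ± 0.41 by TMM and -2.23 ± 0.38 by totals (adjusted p = 5.8e-05 and 0.00016). Ppargc1b, the coactivator PGC-1 beta, was at 14.8, 14.7 and 8.91 CPM in WT and at 4.45, 3.15 and 2.54 CPM in DMD, a change of -1.92 ± 0.34 (adjusted p = 0.0003). Ppargc1a, its better known relative, was at 14, 18.6 and 14 CPM and at 3.68, 7.26 and 8.96 CPM and passed by TMM only (adjusted p = 0.00318 by TMM and 0.118 by totals). Of 17 tested coregulators, 3 were higher (Ncoa7, Ncoa5 and Pprc1) and 2 lower under both scalings. By share that is 17.6% and 11.8%, against 26.4% and 8.38% of all genes.

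The promoter of Perm1 is shown because its gene fell together with Esrra and Esrrg. The window runs from 250 bases before the gene start to 50 after it (RefSeq, GRCr8, chr5:172081999-172082298, plus strand), and capitals mark a match to the estrogen-related receptor core AAGGTCA, read on either strand, and 1 to the NF-kB letters GGGANNNNCC.
Perm1: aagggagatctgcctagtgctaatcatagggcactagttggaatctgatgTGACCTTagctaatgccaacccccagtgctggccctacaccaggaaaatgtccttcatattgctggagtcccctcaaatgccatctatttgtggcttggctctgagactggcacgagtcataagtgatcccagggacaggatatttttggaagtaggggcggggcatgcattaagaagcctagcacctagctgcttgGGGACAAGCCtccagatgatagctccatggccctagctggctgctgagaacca
The AAGGTCA match begins 200 bases before the start, and the letters there are its reverse complement. AAGGTCA occurred in 4.61% of all promoters searched, a set not limited to tested genes. It occurred in 4.96% of those of genes lower under both scalings and in 3.06% of those of genes higher under both. Among factors it occurred in 2.26% of 133 that rose and in 2.38% of 42 that fell. The promoters of Esrra, Esrrg and Rxrg held no match to it. A match is a description of letters and not a site shown to be bound.

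By the same ranking, the 10 highest were Sohlh2, Hnf4a, Batf, Bcl3, Glis3, Zfp697, Bhlhe22, Nfkbiz, Snai2 and Tfec. Sohlh2, a bHLH factor best known from germ cells, had 1 count over the WT libraries and gave 3.91, 29.1 and 13 CPM in the DMD libraries, in replicate order. The ratio was 470 with a 95% counting interval of 84.1 to 18580. Hnf4a, the nuclear receptor of liver and gut, had 2 counts over WT and stood at 1.38, 9.4 and 6.02 CPM in DMD, a ratio of 84.7 with an interval of 23.2 to 702.6. In both genes DMD replicate 1 was the lowest of its group and replicate 2 the highest.

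Bcl3, a nuclear IkB protein that binds NF-kB subunits, was at 7.19, 4.28 and 1.55 CPM in WT and at 15.3, 89.3 and 57.4 CPM in DMD. Nfkbiz, another nuclear IkB protein, was at 2.95, 3.57 and 2.03 CPM in WT and at 13.3, 50.2 and 29.7 CPM in DMD. In both, DMD replicate 1 was the lowest DMD library yet lay above every WT library. Log2 changes were 3.63 ± 0.73 for Bcl3 and 3.46 ± 0.47 for Nfkbiz (adjusted p = 0.00084 and 3.4e-05), and that of Bcl3 was 4.28 without WT replicate 1. Batf, an AP-1 factor of T cells and myeloid cells, was at 0.0922, 0.285 and 0.29 CPM in WT and at 1.92, 4.28 and 2.88 CPM in DMD, a change of 3.76 ± 0.62 (adjusted p = 0.00017). Of 11 tested NF-kB genes 4 rose under both scalings (36.4%, against 26.4% of all genes; Nfkb1, Nfkbid, Nfkbiz and Bcl3) and 1 fell (Nfkbib). Of 16 AP-1 and Maf genes 5 rose (31.2%; Batf, Fosl1, Fosl2, Jdp2 and Junb) and 1 fell (Mafa), and both shares that rose lie near that of all genes. The median log2 fold changes were 0.18 and 0.69 by TMM.

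Tfec, a relative of Mitf active in macrophages, was at 0.369, 0.714 and 2.03 CPM in WT and at 7.97, 6.08 and 14.6 CPM in DMD. Its log2 change was 3.17 ± 0.51 (adjusted p = 0.00015), and 4.19 without WT replicate 3, the highest WT library. The macrophage markers named above moved with these genes, and their part was not tested. Interferon regulatory factors, which answer viral and inflammatory signals and shape myeloid cells, moved almost together: of 9 tested, 7 rose under both scalings (77.8%, against 26.4% of all genes) and none fell. Irf8, needed for macrophage identity, was at 8.48, 10.1 and 8.04 CPM in WT and at 45.1, 43.8 and 73.6 CPM in DMD, a change of 2.61 ± 0.34 (adjusted p = 2.8e-05). Irf5 (2.55), Irf7 (1.81), Irf1 (1.61), Irf4 (2.18), Irf9 (0.83) and Irf2 (0.61) were the others. On a scale fitted over all 18 libraries, Irf7 ran from 19.1 to 51.8 CPM in DMD. WT libraries of 3 months (26.1 to 31.1 CPM) and 18 months (20.9 to 30.7 CPM) lay inside that range. Irf1 in WT of 3 months (22.3 to 33.3 CPM) overlapped DMD (30.2 to 59.5 CPM). The family median was 1.61 by TMM and 2.26 by totals. Of 7 tested genes of the Runx factors and their partners, 3 rose (Runx1 2.54, Runx2 2.41 and Runx3 2.60) and 1 fell (Cbfa2t3 -2.07). By share that is 42.9% and 14.3%, against 26.4% and 8.38% of all genes. Of 19 tested ETS genes 8 rose (42.1%) and none fell under both scalings, with Spi1, the myeloid factor PU.1, at 2.19 ± 0.45.

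Promoters of 3 of these genes are shown with the letters of NF-kB (GGGANNNNCC) and of STAT sites (TTCNNNGAA) in capitals, on either strand. They lie at chr11:58251471-58251770 on the plus strand (Nfkbiz), chr1:88613506-88613805 on the minus strand (Bcl3) and chr10:38417685-38417984 on the plus strand (Irf1), in RefSeq, GRCr8.
Nfkbiz: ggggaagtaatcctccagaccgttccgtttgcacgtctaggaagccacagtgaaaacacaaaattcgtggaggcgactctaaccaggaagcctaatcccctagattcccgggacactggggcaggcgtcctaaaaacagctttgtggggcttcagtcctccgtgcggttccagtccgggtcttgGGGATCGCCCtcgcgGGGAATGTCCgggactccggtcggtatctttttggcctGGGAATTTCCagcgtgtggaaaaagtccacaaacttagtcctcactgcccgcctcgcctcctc
Bcl3: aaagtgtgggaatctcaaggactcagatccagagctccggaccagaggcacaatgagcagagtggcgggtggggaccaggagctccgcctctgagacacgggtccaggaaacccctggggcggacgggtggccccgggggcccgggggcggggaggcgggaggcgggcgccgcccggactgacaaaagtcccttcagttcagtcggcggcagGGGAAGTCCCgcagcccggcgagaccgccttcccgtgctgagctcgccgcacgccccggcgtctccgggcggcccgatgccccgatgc
Irf1: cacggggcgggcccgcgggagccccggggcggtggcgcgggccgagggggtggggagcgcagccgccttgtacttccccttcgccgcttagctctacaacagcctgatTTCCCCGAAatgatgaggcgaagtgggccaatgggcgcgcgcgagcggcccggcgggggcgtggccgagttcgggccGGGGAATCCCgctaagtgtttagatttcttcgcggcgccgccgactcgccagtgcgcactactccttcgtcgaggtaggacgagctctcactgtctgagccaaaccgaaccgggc
The Nfkbiz window holds 3 NF-kB matches, beginning 66, 51 and 13 bases before the start, while the Bcl3 window holds 1, at 38 bases before it. That of Irf1 holds 1 NF-kB match at 65 bases and 1 STAT match at 142 bases before the start. No base belongs to matches of both motifs. Of other single promoters searched in this way, those of Batf and Irf8 matched both motifs. Those of Snai1, Six4, Esrra, Esrrg and Rxrg matched neither. The NF-kB letters occurred in 19.3% of all promoters, in 27.8% of those of genes higher and 25.0% of those of genes lower under both scalings. Among factors the shares were 27.1% of 133 that rose and 19.0% of 42 that fell. STAT letters occurred in 8.87% of all promoters and in 5.26% and 2.38% of these factors' promoters. The set of all promoters, 33469, was not limited to tested genes or to 1 per gene, as the called sets were. No share over tested genes was taken, so the shares over all promoters are no like baseline for the others. A promoter was found for 175 of the 223 factors called under both scalings. Other motifs searched on both strands were TCAGGTT (the MEF3 core, 4.03% of all promoters), CAGCTG (the MyoD E-box, 15.1%), TGANTCA (AP-1, 7.33%), GAAANNGAAA (the interferon-stimulated element, 3.92%), TGACGTCA (CRE, 1.83%) and the MEF2 motif (3.29%). TCAGGTT was in 2.62% of promoters of genes that rose and in 4.41% of those of genes that fell. In the same order the shares were 17.4% and 18.5% for CAGCTG, 6.15% and 4.96% for TGANTCA, and 3.50% and 1.54% for GAAANNGAAA. For TGACGTCA they were 1.89% and 3.41%, and for the MEF2 motif 1.20% and 3.19%. Differences between these shares were not tested.

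Genes of the Snail and Gli families rose too. Snai2, a Snail repressor of epithelial genes active in mesenchyme, was at 1.38, 2 and 0.484 CPM in WT and at 18.8, 7.99 and 11.1 CPM in DMD, a log2 change of 3.33 ± 0.47 (adjusted p = 4.5e-05). Snai1 was at 7.28, 1.71 and 4.07 CPM in WT and at 16.8, 55.8 and 36 CPM in DMD, a change of 3.01 ± 0.45 (adjusted p = 8.4e-05). Glis3, a Gli-like zinc finger factor, was at 0.922, 1.86 and 0.29 CPM and at 15.4, 8.78 and 10.2 CPM, a change of 3.56 ± 0.48 (adjusted p = 3.6e-05). None of the 3 had overlapping groups, and the DMD libraries did not share an order, since replicate 1 was the highest for Snai2 and Glis3 and the lowest for Snai1. Glis1 (2.85), Gli2 (1.33), Glis2 (1.12) and Gli3 (0.95) rose as well, so that 7 of 10 tested genes of the Snai, Gli and Zic families were higher under both scalings. Of all tested genes 26.4% were higher under both. None of the 10 was lower under both, and 1 was lower by TMM. Their median was 1.23 by TMM. The change of Glis3 was 4.21 without WT replicate 2 and that of Snai1 was 3.60 without WT replicate 1. The fibroblast markers rose with them, and their part was not tested.

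Egr1 (1.51), Egr2 (2.71) and Egr3 (2.63), immediate early factors, rose under both scalings, but for Egr1 DMD replicate 1, at 39.5 CPM, lay among the WT libraries (33.3, 48.7 and 90.6 CPM). Bhlhe22, a bHLH repressor, was at 0.553, 0.285 and 0.29 CPM in WT and at 3.22, 6.75 and 3.54 CPM in DMD, a change of 3.52 ± 0.53 (adjusted p = 7.9e-05). Zfp697, a zinc finger protein, was at 0.277, 0.143 and 0.387 CPM and at 3.76, 3.6 and 2.81 CPM, a change of 3.56 ± 0.56 (adjusted p = 0.00012). Twist1, a mesenchymal bHLH factor, rose by 2.46, and 3 Tcf genes that act in Wnt signalling rose by 1.52, 1.15 and 1.22 (Tcf7, Tcf7l1 and Tcf7l2). Smad1, which carries BMP signals, rose from 19.8, 21.8 and 16.9 CPM in WT to 36.4, 40.5 and 40 CPM in DMD. Its relative Smad9 rose by 2.05, whereas Smad3, which carries TGF-beta signals, fell by 1.46 on the log2 scale.

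**Figure D3:**
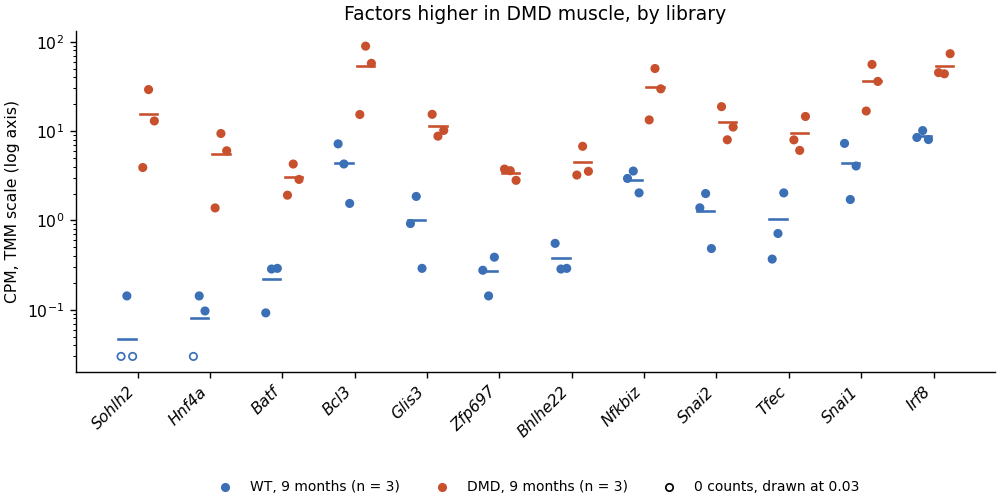
Level of the 10 highest factors and of Snai1 and Irf8 in each 9-month library, in CPM on the TMM scale (log axis); points are libraries, bars are group means, and open points are libraries with 0 counts. In all 12 genes the DMD libraries lie above the WT libraries, which the ranking required of the first 10, with DMD replicate 1 the lowest of its group for Sohlh2, Hnf4a, Batf, Bcl3, Bhlhe22, Nfkbiz and Snai1.

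Several families beyond the factors held members that mostly moved 1 way. Of all tested genes 26.4% were higher and 8.38% lower under both scalings, and differences of the family shares from these were not tested. Cathepsins and cystatins, lysosomal proteases and their inhibitors, had 14 of 16 tested members higher and none lower under both scalings (median log2 fold change 1.58 by TMM). Ctsk, the collagen-cutting cathepsin, was at 13.3, 13.3 and 8.42 CPM in WT and at 77.1, 52.7 and 64.5 CPM in DMD, a change of 2.48 ± 0.22 (adjusted p = 1.9e-06). Ctss, a cathepsin of antigen-presenting cells, was at 28.9, 29.6 and 32.5 CPM and at 156, 102 and 187 CPM, and Ctsh (1.95) and Ctsb (1.90) rose with it. Ms4a proteins, Fc receptors and Lilr receptors, which sit on immune cells, had 26 of 30 tested members higher and none lower (median 2.68). Lilrb3a, an inhibitory receptor, was at 11, 10.4 and 12.9 CPM in WT and at 67, 73.8 and 99.1 CPM in DMD, a change of 2.80 ± 0.32 (adjusted p = 9.6e-06). Ms4a6a rose by 2.75, Fcgr2b by 4.29, and Fcgrt, the neonatal Fc receptor chain that recycles antibody, rose too, from 70.2, 53.1 and 49.4 CPM to 164, 134 and 189.7 CPM. Reads of Fc and Lilr genes can be shared with near-identical relatives, so these single-gene values are uncertain. All 8 macrophage markers rose beside both families, and their part was not tested.

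Septins, cytoskeletal GTPases that form filaments and rings, had 9 of 11 tested members higher and none lower (median 0.99). Septin9 was at 47.2, 35 and 39.4 CPM in WT and at 129, 115 and 130.0 CPM in DMD, a change of 1.62 ± 0.19 (adjusted p = 1.3e-05). Smaller changes were seen in Septin5 (1.14), Septin2 (0.80) and Septin11 (0.75), and no groups overlapped in these 4 genes. S100 proteins, small calcium sensors, had 8 of 10 tested members higher and 1 lower (median 2.22). S100a4, found in fibroblasts and macrophages, was at 18.1, 22.4 and 17.3 CPM in WT and at 222, 441 and 307 CPM in DMD, a change of 4.07 ± 0.33 (adjusted p = 1.5e-06). S100a1, the member of striated muscle that tunes calcium release, was the exception, at 63.8, 60 and 52.4 CPM in WT and at 12, 14.1 and 11.4 CPM in DMD. It fell by 2.23 on the log2 scale by TMM and by 1.59 by totals (SE 0.22 and 0.22, adjusted p = 3.9e-06 and 2.8e-05).

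Serpins, inhibitors of proteases, had 10 of 14 tested members higher and none lower (median 1.52). Serping1, the C1 inhibitor of complement, was at 109, 104 and 128 CPM in WT and at 471, 344 and 462 CPM in DMD, a change of 1.91 ± 0.22 (adjusted p = 9.9e-06). Serpinf1, the factor PEDF, rose by 1.56. Serpinb6a rose by 1.20, and its clustered relatives make that value uncertain. The C1q and TNF related proteins, secreted relatives of adiponectin, had 7 of 9 tested members higher and none lower under both scalings, with 1 lower by TMM (median 1.66). C1qtnf3 was at 1.75, 1.43 and 1.26 CPM in WT and at 14.9, 14.8 and 13.8 CPM in DMD, a change of 3.28 ± 0.27 (adjusted p = 1.5e-06). C1qtnf5 (2.44), C1qtnf1 (1.66) and C1qtnf2 (1.47) rose with it. All 5 fibroblast markers and 4 of 5 adipocyte markers rose beside these families, and their part was not tested.

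Asb proteins, ankyrin-repeat adaptors of ubiquitin ligases that are rich in striated muscle, fell as a group. Of 15 tested members 9 were lower and none higher under both scalings, where 8.38% of all genes were lower under both, and 1 more was lower by TMM. Their median log2 fold change was -1.45 by TMM and -0.80 by totals, where that of all genes was 0.11 and 0.76. Asb2, which marks filamins for destruction, was at 1126, 752 and 834 CPM in WT and at 154, 212 and 135 CPM in DMD, a change of -2.44 ± 0.27 (adjusted p = 7.8e-06). Asb15 was at 38.9, 33.5 and 40.3 CPM in WT and at 7.13, 8.78 and 6.49 CPM in DMD, a change of -2.33 ± 0.18 (adjusted p = 1.5e-06). Asb14 fell by 2.33 and Asb8 by 1.21 on the log2 scale, and in none of the 4 did the groups overlap. The falls of Asb4 (-5.27), Asb10 (-3.68), Asb16 (-2.65), Asb18 (-2.61) and Asb12 (-1.45) completed the 9. The fall of the 8 tested fibre markers moved with this family, and its part was not tested.

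Kelch-like proteins, another class of ubiquitin ligase adaptors, had 8 of 39 tested members lower and 5 higher under both scalings. These shares are 20.5% and 12.8%, against 8.38% and 26.4% of all genes. By TMM 18 were lower, where 21.8% of all genes were (median -0.48). Klhl31, needed for sarcomere integrity, was at 1340.0, 1229 and 1353 CPM in WT and at 214, 182 and 151 CPM in DMD, a change of -2.84 ± 0.29 (adjusted p = 4.5e-06). Kbtbd12 was at 71.2, 74.9 and 90.7 CPM and at 20, 16.5 and 13.6 CPM, a change of -2.24 ± 0.20 (adjusted p = 2.2e-06), and Klhl21 (-2.04) and Klhl22 (-1.30) fell as well. Regulators of muscle splicing had 4 of 15 tested members lower and 2 higher (26.7% and 13.3%, against 8.38% and 26.4% of all genes). Rbm20, which sets the splicing of titin, was at 120.4, 129.9 and 147 CPM in WT and at 23.4, 42.9 and 26.9 CPM in DMD, a change of -2.09 ± 0.24 (adjusted p = 9.4e-06). Rbm24 (-1.49), Rbfox1 (-1.41) and Rbm38 (-1.19) fell with it. Ptbp1, a repressor of muscle and neural exons, moved the other way, from 40.9, 38.8 and 37.4 CPM to 79.9, 96.7 and 116 CPM, a change of 1.32 ± 0.18 (adjusted p = 3.2e-05), and so did Ptbp3 (1.13).

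Mitochondrial carriers, which move metabolites and ions across the inner membrane, had 8 of 32 tested members lower and 5 higher under both scalings. These shares are 25.0% and 15.6%, against 8.38% and 26.4% of all genes. By TMM 15 were lower, where 21.8% of all genes were (median -0.59 by TMM and 0.06 by totals). Slc25a25, a calcium-regulated ATP and phosphate carrier, was at 286, 162 and 234 CPM in WT and at 13.9, 22.7 and 19.8 CPM in DMD. Its log2 change was -3.59 ± 0.33 (adjusted p = 2.5e-06). On a scale fitted over all 18 libraries, Slc25a25 ran from 12.9 to 21.5 CPM in DMD and from 19.8 to 49.3 CPM in WT of 18 months. In WT of 3 months Slc25a25 ran from 22.4 to 161 CPM. Its close relative Slc25a24, with the same kind of transport, was at 8.85, 6.14 and 9.2 CPM in WT and at 28.7, 23.1 and 33.8 CPM in DMD and rose by 1.81 ± 0.21 (adjusted p = 1.1e-05). The aspartate carrier Slc25a12 (-1.92) and the oxoglutarate carrier Slc25a11 (-1.72) fell. Aldehyde and aldo-keto enzymes had 6 of 26 tested members lower and 4 higher (23.1% and 15.4%, against 8.38% and 26.4% of all genes). Aldh1a1, which makes retinoic acid, was at 193, 184 and 192 CPM in WT and at 60.6, 60 and 33.9 CPM in DMD, a change of -1.88 ± 0.20 (adjusted p = 5.2e-06). Aldh6a1, an enzyme of valine breakdown, fell by 1.70 and aldose reductase Akr1b1 by 1.16 on the log2 scale. Akr1b8, a relative of Akr1b1, rose from 11.2, 9.42 and 8.91 CPM to 35.7, 41.1 and 40.3 CPM (1.98 ± 0.15, adjusted p = 9.1e-07).

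The Rfx, Thap and Dmrt factors were listed together with the Hsf and Mtf factors, Nrf1 and the mitochondrial transcription factors. This group had 5 of 25 tested members lower and 1 higher under both scalings, and 12 lower by TMM (median -0.51). Among all tested genes 8.38% were lower and 26.4% higher under both scalings, and 21.8% were lower by TMM. Tfb2m, which starts transcription of mitochondrial DNA, was at 60.3, 68.9 and 57.8 CPM in WT and at 30.7, 30.3 and 17.8 CPM in DMD, a change of -1.24 ± 0.22 (adjusted p = 0.00028). Thap6 (-1.49), Thap3 (-1.26) and Thap4 (-1.12), zinc finger proteins, fell too, with adjusted p by totals of 0.00086, 0.00841 and 0.0352. Histone genes had 3 of 16 tested entries lower and 2 higher (18.8% and 12.5%, against 8.38% and 26.4% of all genes). Hist1h2bq fell by 1.43 and H2bu1 by 1.20 on the log2 scale under TMM, while H1f2 was lower by TMM (adjusted p = 0.00027) and did not pass by totals (adjusted p = 0.0529). One of the 2 entries named H3f3a rose, with a log2 change of 1.19 ± 0.16 (adjusted p = 3.5e-05). Copies of histone genes are near-identical, so the split of reads among them is uncertain.

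**Figure D4:**
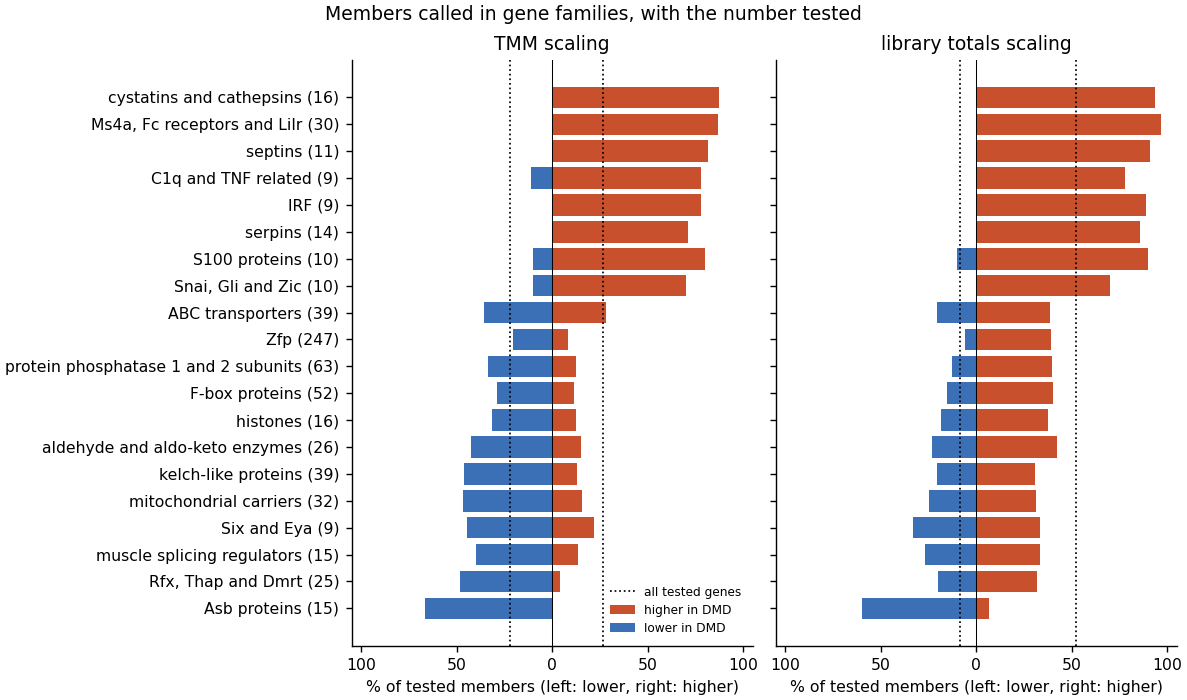
Share of tested members called higher (right) and lower (left) in DMD for 20 families, under TMM and under library-total scaling, with the number tested in brackets; dotted lines mark the shares of all tested genes. From TMM to totals no family's lower share grows and no family's higher share shrinks, and Asb proteins keep 9 of 15 members lower by totals.

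Some large families held members on both sides. Of 247 tested Zfp zinc finger genes 20 were higher and 15 lower under both scalings (8.10% and 6.07%, against 26.4% and 8.38% of all genes). Zfp770 (-1.59) and Zfp91 (-1.28) fell, and Zfp275 (0.96) rose along with Zfp697. ABC transporters had 11 of 39 higher and 8 lower (28.2% and 20.5%, the latter above the 8.38% of all genes). Abcg1, a cholesterol exporter of macrophages, was at 11.1, 7.71 and 10.1 CPM in WT and at 68.1, 83.2 and 102 CPM in DMD, a change of 3.12 ± 0.21 (adjusted p = 6.4e-07), and Abca1, which works with it, rose by 1.95. Abcc8, the sulfonylurea receptor of potassium channels, was at 21.5, 12.4 and 17.3 CPM in WT and at 0.307, 1.58 and 1.14 CPM in DMD, a change of -4.04 ± 0.50 (adjusted p = 1.7e-05). Abcf3 fell by 0.96 by TMM and by 0.32 by totals, where it passed narrowly (adjusted p = 0.0477).

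Subunits of protein phosphatases 1 and 2 had 8 of 63 higher and 8 lower (12.7% each, against 26.4% and 8.38% of all genes). Ppp1r1a, an inhibitor of phosphatase 1, was at 227, 189.8 and 203 CPM in WT and at 25.8, 34.1 and 22.3 CPM in DMD, a change of -2.91 ± 0.26 (adjusted p = 1.9e-06). Ppp1r3a, which brings phosphatase 1 to muscle glycogen, was at 522, 609 and 583 CPM and at 144, 181 and 110.1 CPM, a change of -1.98 ± 0.20 (adjusted p = 4.1e-06). Neither gene's groups overlapped, while Ppp4c (0.94) and Ppp1r9b (1.02) rose. F-box proteins, substrate adaptors of ubiquitin ligases, had 6 of 52 higher and 8 lower (11.5% and 15.4%, against 26.4% and 8.38% of all genes). Fbxo40, a muscle F-box protein that targets the insulin receptor substrate IRS1, was at 360.1, 384 and 299 CPM in WT and at 76.3, 78.4 and 59.2 CPM in DMD, a change of -2.29 ± 0.27 (adjusted p = 1.3e-05). Fbxl4, a mitochondrial F-box protein, fell by 1.95 on the log2 scale, and Fbxo10 (2.75) and Fbxw17 (1.61) rose.

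Over all genes with a mean log2 CPM of at least 2, the largest changes that held under both scalings were rises from about 0. That mean was taken over the 12 libraries of the fit, most of them DMD or p16-null DMD. A gene near 0 in WT thus passed the cut more easily than a gene near 0 in DMD and p16-null DMD. The part of this cut in the direction of the largest changes was not tested. Il6, an inflammatory cytokine, had 0 counts over the WT libraries and 808 over the DMD libraries, so with WT set to a floor of 3 counts in all it was at least 166-fold higher by TMM and at least 259-fold by totals. The matrix protein gene Tnn was at least 153-fold and 239-fold higher, the phosphatase gene Ptprv at least 91.3-fold and 142-fold, Clec2dl1 at least 61.2-fold and 95.4-fold, and Cd5l, a macrophage protein, at least 40.6-fold and 63.4-fold. Fgf23, the phosphate hormone, had 2 counts in WT and 2361 in DMD, a ratio of 727 by TMM (95% counting interval 201 to 6005). DMD replicate 1 was well below the other two for Il6 (1.76, 30.2 and 16.6 CPM in replicates 1 to 3) and Fgf23 (14.7, 70.4 and 61.4 CPM). Counting intervals and floors cover counting error only.

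The 12 libraries outside this comparison gave values for the same genes. They hold 6 p16-null DMD libraries of 9 months and 6 WT libraries of 3 and 18 months, none of which enters the DMD or WT means above, though the p16-null libraries share the estimate of spread. Age and Cdkn2a genotype differ between them along with DMD, so these cannot be told apart. Cdkn2a itself ran from 10.1 to 15.3 CPM under the p16-null DMD label and from 10.7 to 19.3 CPM in DMD, and counts per gene do not show which exons the reads came from. Of the 3914 genes higher under both scalings, 1742 (44.5%) had all p16-null DMD libraries above all 6 WT libraries under both scalings, where 13.0% of all tested genes did. Of the 1240 lower genes 702 (56.6%) had them below, where 5.53% of all tested genes did. Among factors the numbers were 58 of 164 (35.4%) and 22 of 59 (37.3%), where 8.31% and 3.10% of all 806 tested factors did so. By family, 8 of the 9 lower Asb genes, 17 of the 26 higher Ms4a, Fc and Lilr genes and 2 of the 7 higher IRF genes did so.

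Of the 7 lowest factors named, 6 had no overlap by TMM and 4 under both scalings. Barx2 ran from 0 to 0.389 CPM in p16-null DMD and from 10.1 to 25.6 CPM in the 3- and 18-month WT libraries. Ikzf2 overlapped, with 1.75 to 3.34 CPM in p16-null DMD and 2.60 to 5.42 CPM in WT of 18 months. Of the 10 highest factors only Glis3, Snai2 and Tfec had no overlap by TMM or under both scalings. Sohlh2 stood at 0 to 0.095 CPM in WT of 3 months but at 5.42 to 14.6 CPM in WT of 18 months, inside the range of p16-null DMD (3.27 to 37.5 CPM). Hnf4a likewise ran from 1.98 to 5.80 CPM in WT of 18 months and from 0.467 to 18.3 CPM in p16-null DMD.

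**Figure D5:**
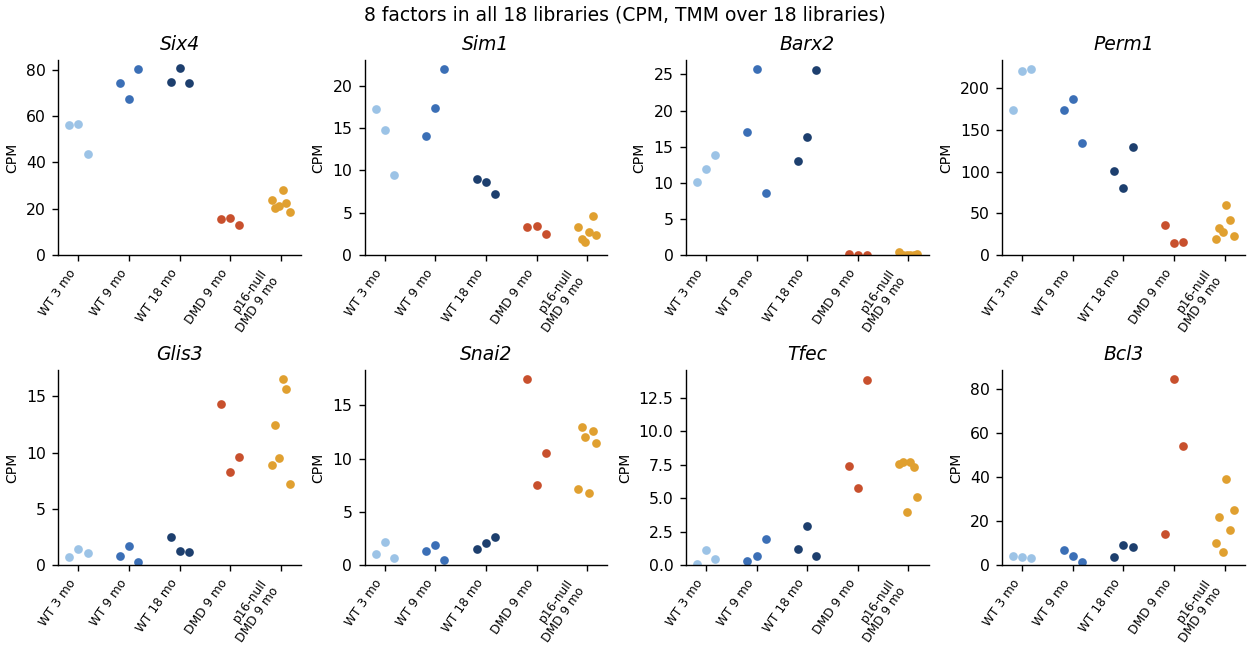
Level of 8 factors in all 18 libraries, in CPM on a TMM scale fitted over the 18; points are libraries and columns are groups. Six4, Sim1, Barx2 and Perm1 lie lower in both DMD groups than in the WT libraries of the 3 ages, and Bcl3 overlaps between p16-null DMD and WT.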

How the data were processed

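RNA of 18 libraries was measured, and 6 enter this comparison. The deposited table holds expected counts from RSEM for each gene, 4.50% of them not whole, which were rounded. The deposited TPM values, scaled by length by the authors, served as an alternative. The tools named in the submitters' processing notes are STAR 2.7.10b, RSEM 1.3.3, Trimmomatic and FastQC, with the build mRatBN7.2. Per the labels' protocols, the kits were RNeasy mini for RNA and TruSeq for libraries. The sources used here give neither the annotation release nor the strand setting, so overlapping and antisense genes cannot be told apart. Of the 30560 entries 7162 had no symbol and took 8.25 to 17.1% of a 9-month WT library and 12.9 to 13.1% of a DMD library.

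Low counts were removed with filterByExpr, and 12 libraries of 9 months (WT, DMD and p16-null DMD) shared 1 fit in edgeR 4.0.16 (R 4.3.3), with a biological coefficient of variation of 0.26. The contrast was DMD minus WT, under TMM and again under library totals. The SE was taken as the absolute log2 change over the root of F. Replicates of a group differed by more than counting error, so none was treated as the same library deposited again. Steps were tested on simulated data.

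Members and lists were chosen with earlier results of these data known. Families were defined by symbol patterns, and symbols that matched a pattern by chance were taken out. The rule named Dmd, Cdkn2a, Myh3 and Postn, and the 10 highest and 10 lowest factors with a mean log2 CPM of at least 1. It described, among families with at least 6 tested members, the 8 that rose most, the 8 that fell most and 4 mixed ones, with up to 4 members each. It also named the 6 largest changes with a mean log2 CPM of at least 2. Some genes that the rule named are not reported here. Its part on genes called in opposite directions by the 2 scalings found none. Alternatives were RLE and upper-quartile factors, DESeq2 1.42.0, limma 3.58.1 on log2(TPM + 1) and log2(TPM + 0.1), other filters (none, or 5 CPM in 3 libraries), other sets of libraries, the 50 most abundant genes left out, a replicate block, a 2-fold minimum and each library left out. Totals of entries with a symbol were added after seeing the data. Plots were made in matplotlib 3.10.9.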

Additional observations from a re-analysis of the deposited data

Results flagged for a closer look

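In 1 of the 17 factors named by rank, 1 library labelled p16-null DMD stood apart from the other 5 by Dixon's criterion, which chance alone meets in about 1 of 20 groups. Nfkbiz was highest in replicate 6, at 18.92 CPM, where the next library had 11.82 CPM. That library enters neither the DMD nor the WT mean, and groups of 3 libraries were not examined in this way.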

How the results depend on the processing

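The split of calls followed the scaling. By library totals 7691 genes were higher and 1240 lower, by totals of entries with a symbol 7812 and 1226, by limma on log2(TPM + 1) 8058 and 1044, and by limma on log2(TPM + 0.1) 8318 and 1035, where TMM gave 3914 and 3228. For factors the same 4 settings gave 398 and 59, 404 and 56, 411 and 49, and 429 and 48, against 164 and 178. Of changed genes 54.8% were higher by TMM, 52.4% by RLE, 57.2% by upper-quartile factors, 52.9% by DESeq2, 86.1% by totals and 88.5% by limma on log2(TPM + 1). A 2-fold minimum left 4489 changed genes, 1669 of them lower, and 212 changed factors, 90 of them lower. The other settings left the counts within 1.5 times.

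With 1 library left out, 6052 to 6703 genes were changed (3379 to 3677 higher, 2673 to 3026 lower), and 280 to 320 factors (132 to 153 higher, 137 to 167 lower). By totals the ranges were 7769 to 8641, 6739 to 7506 and 982 to 1191. With the replicate number as a block, 6476 genes and 296 factors were changed. Same-numbered libraries had correlations of -0.11, -0.0755 and 0.0575, and those with different numbers ran from -0.0874 to 0.163. With 3 libraries in each group, these values cannot show whether same-numbered libraries share more than a number.

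Of 104 named genes 97 kept their direction and call under all 19 settings other than the 2-fold minimum in which they were tested, and 8 were under 2-fold. Ikzf2 missed the threshold with both TPM fits, and H1f2, H2bu1 and Abcf3 with both TPM fits and with totals of entries with a symbol (H1f2 also by library totals). Under library totals, both TPM fits (pseudocounts 1 and 0.1) and totals of entries with a symbol, in that order, the log2 change turned to 0.020, 0.11, 0.11 and 0.031 for Cul4a, to 0.064, 0.19, 0.19 and 0.073 for Eftud2, and to 0.029, 0.15, 0.15 and 0.039 for Foxj3. The cause of these shifts beyond the change of scale was not tested. Fitted log2 changes of genes with few counts in 1 group moved most: without WT replicate 2, that of Sohlh2 was 10.78, without WT replicate 1, that of Fgf23 was 12.41, and without DMD replicate 1, that of Barx2 was -10.94. Those of Cdkn2a (6.38 to 7.86), Hnf4a (5.51) and Il6 (9.93) moved too, and none lost its call. Sohlh2, Hnf4a, Fgf23, Il6, Cdkn2a and Barx2 each had 3 or fewer counts over 1 group, so depth limits how precisely their ratios are known.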
